A study of Mus musculus with 13 samples.

Results

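The empty control of this series is 1 whole-genome library of GFP+ bone marrow cells, and the variants described here are the calls found in that library and in none of the leukaemias. A control call was kept when it lay on chromosomes 1 to 19, had at least 10 reads, and its position and alleles were called at no depth in the 6 leukaemia libraries. By that rule 2019 of 29682 control single-base changes (SNVs) were control-only, which is 6.8% (95% interval of the count 1932 to 2109). Of 80889 control insertions and deletions (INDELs), 28122 were control-only, which is 34.8%. Of 242 control copy number rows, 159 overlapped no row of the same direction in the 5 complete leukaemia tables, which is 65.7%. The whole series holds 84383 distinct SNVs and 461185 distinct INDELs over its 7 libraries. Intervals here are exact and cover counting error only.

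The study overexpressed N-Myc, a Myc-family transcription factor, from a retrovirus and sequenced the acute leukaemias that arose. All 7 libraries came from GFP+ bone marrow cells of C57BL/6 mice, with a stage of 8 to 10 weeks given in the labels. The empty control is described only as GFP+ cells from empty control mice (1000000 cells, no lineage marker). It was set against 4 leukaemias of 2000000 cells each: Mac1+Gr1+ cells of AML, B220+ cells of B-ALL, CD3+ cells of T-ALL, and AUL cells with none of these markers. The MPAL fractions were M-MPAL (Mac1/Gr1+B220-CD3/4/8-) and T-MPAL (Mac1/Gr1-B220-CD3/4/8+), of 1000000 cells each. The labels name neither the number of animals behind each library nor a matched normal DNA, so inherited and acquired variants cannot be told apart. With 1 library per group no test between groups was made.

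A blood-forming stem cell passes its mutations to all its descendants. In marrow fed by many stem cells each such mutation is carried by a small share of the cells, whereas in an expanded clone it reaches the share of a heterozygous variant. Runs of short repeated units (microsatellites) gain and lose units more often than other DNA changes, and they are also prone to such slips during library amplification. Reads from near-identical copies of a sequence can be placed on the wrong copy, which produces mixed bases at a site where no single copy varies.

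The control-only INDELs were mainly changes of whole units in such tracts, and the alleles below are printed to show what the typical call looks like. Each is the deposited mm10 allele on the + strand, in lower case with the deleted bases in capitals. The first 3 are intergenic and lie in simple repeats. They lost 1 unit of 2 bases in 5 of 18 reads (chr6:107576455-107576489), 5 of 16 reads (chr5:123894396-123894430) and 4 of 16 reads (chr1:154012684-154012704).
AC unit, chromosome 6: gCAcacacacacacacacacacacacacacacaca
AG unit, chromosome 5: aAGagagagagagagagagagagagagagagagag
AT unit, chromosome 1: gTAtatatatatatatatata

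The coding INDELs are shown because nearly all of them lost 1 codon from a run of the same codon. Capitals again mark the deleted bases of the reference allele. Il2, which encodes the T-cell growth factor interleukin 2, lost 3 bases at chr3:37125766-37125804 in exon 1. Clock, a circadian transcription factor, lost 3 bases at chr5:76227042-76227067 in exon 22. Med12l, a homologue of a Mediator subunit, lost 3 bases at chr3:59275959-59275996 in exon 38. Ifnlr1, a receptor chain for type III interferons, lost 3 bases at chr4:135705730-135705753 in exon 7. Tstd3 carried the only coding INDEL outside a simple repeat (chr4:21759744-21759752, exon 2).
Il2: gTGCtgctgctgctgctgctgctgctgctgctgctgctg
Clock: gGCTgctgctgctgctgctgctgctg
Med12l: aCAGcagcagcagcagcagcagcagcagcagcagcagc
Ifnlr1: aGAGgaggaggaggaggaggagga
Tstd3: cTTAGGAGt

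A few promoter SNVs are printed as examples of single-base changes in unique sequence near genes, chosen after their values were seen. Of 13 control-only SNVs in the RefSeq promoter windows (250 bases before a gene start and the first 50 of the gene), 4 outside repeats with a call quality of at least 50 are shown. The sequences are 21 bases from RefSeq (GRCm38.p6, + strand) with the changed reference base in capitals. Nt5dc3 (chr10:86778795-86778815) carried its change 200 bases before the start in 10 of 42 reads. Dars (chr1:128417550-128417570), the aspartyl-tRNA synthetase gene, carried one 144 bases before the start in 7 of 29 reads. Ihh (chr1:74951829-74951849), which encodes the signal Indian hedgehog, carried one 167 bases before the start in 8 of 42 reads. Axin2 (chr11:108920181-108920201), a negative regulator and target of Wnt signalling, carried one 158 bases before the start in 6 of 35 reads.
Nt5dc3: cgcaatcgagAtggtccaact
Dars: cttccccttgCtcccagagtc
Ihh: gcgctcctcaGccgcgcgtcc
Axin2: atcagaactcCggccgagaac

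Some properties of the libraries bear on every count. At SNVs called in all 7 libraries at any depth, the median depth was 43 reads in the control and 47 to 52 reads in the leukaemias. The lowest deposited depth was 5 reads and the lowest number of alternative reads 2 in the control and both MPAL fractions, against 1 to 2 of each in the other 4 libraries. Among leukaemia-only SNVs found by the same rule, AUL had 6875, T-ALL 3966, B-ALL 2245, AML 2368, M-MPAL 2983 and T-MPAL 2368, or 6.61% to 18.1% of each library's calls. The leukaemia-only INDELs ran from 23735 (T-MPAL) to 34476 (T-ALL), or 31.9% to 35.1% of calls. The control's 6.8% of SNVs was thus near the low end of these values, and its 34.8% of INDELs lay within their range.

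The control-only SNVs were carried by a minority of reads. Their median share of alternative reads was 0.273 (quartiles 0.222 to 0.333), against 0.495 for the 18728 control SNVs that all 7 libraries had. That set of 18728 was mixed, with 63.3% in segmental duplications and 33.8% at a share over 0.6. A share of 0.4 to 0.6, where a heterozygous variant carried by every cell would mostly lie, was found for 208 control-only SNVs (10.3%, 9.01% to 11.7%), against 37.2% of those in all 7. The call quality (QUAL, a Phred-scaled score that ran from 20 to 228) had a median of 39.8 in control-only SNVs and 203.5 in those in all 7. The median call rested on 6 alternative reads of 24 in the control-only set and on 22 of 45 in the set of all 7. Only 584 (28.9%) were listed in dbSNP, against 79.1%. The leukaemia-only sets had median shares of 0.294 to 0.412 and median QUAL of 36.0 to 158, so the control had the lowest median share of the 7, while AML and B-ALL had lower median QUAL. At the depth limit, the 79 calls with 10 reads had a median share of 0.3 and a median QUAL of 32.4, and the 94 with 9 reads, just outside, had 0.333 and 29.2.

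**Figure D1:**
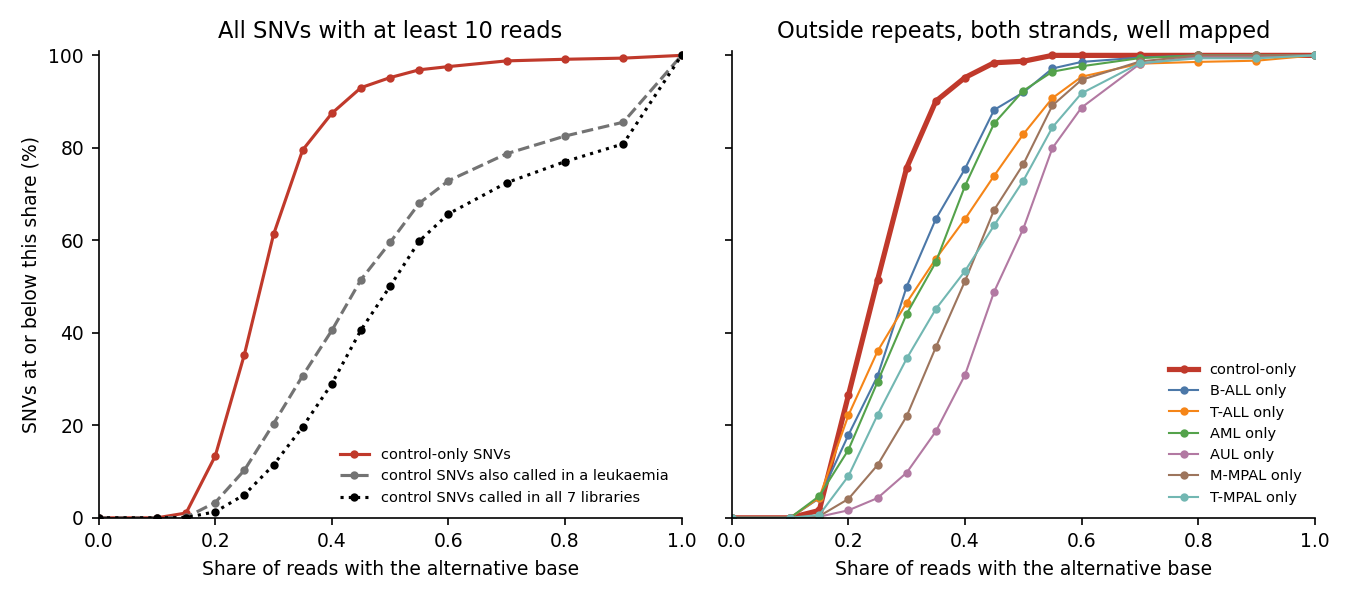
Cumulative percentage of SNVs (vertical axis) against the share of reads with the alternative base (horizontal axis), for all control SNVs by set (left) and for library-only SNVs outside repeats and segmental duplications, read on both strands, with a mapping quality of at least 45 (right). The control-only sets (red) have the lowest medians on both sides, 0.273 and 0.241.

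The difference in read share was also present where mapping was least ambiguous. Outside repeats and segmental duplications, with alternative reads on both strands and a mapping quality of at least 45, 313 control-only SNVs were left. Their median share was 0.241 (quartiles 0.194 to 0.294), and 240 of them (76.7%) lay between 0.15 and 0.3. A share of at least 0.4 was reached by 15 of them, or 4.79% (2.71% to 7.78%). The same selection left 212 SNVs in B-ALL with a median share of 0.298, 170 in AML at 0.314 and 780 in T-ALL at 0.316. It left 476 in T-MPAL at 0.381, 832 in M-MPAL at 0.392 and 2456 in AUL at 0.452. B-ALL, the nearest to the control, had 24.5% at a share of at least 0.4, and AUL had 69.1%. The 1180 control SNVs in all 7 that passed this selection had a median share of 1. C to T changes made up 50.2% (44.5% to 55.8%) of these 313 control-only SNVs, and C to A changes 16.9%. Under the same selection C to T made up 60.1% in AUL, 48.2% in M-MPAL and 28.2% to 33.5% in the other 4. A call needs a minimum of alternative reads, so variants at lower shares of reads could be missed at this depth. The lowest share among all control-only SNVs was 0.125.

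T to A changes were more common among all control-only SNVs than in the other sets, and their percentage depended on the selection of calls. Counted on the pyrimidine strand, T to A made up 19.8% (18.05% to 21.6%) of control-only SNVs, against 10.4% of the control SNVs in all 7 and 8.80% to 14.4% of the leukaemia-only sets. With a QUAL of at least 100 it was 9.84% (6.47% to 14.2%) of 254 control-only SNVs, with no leukaemia-only value at that QUAL beside it. Outside repeats and segmental duplications, with no rule on strand, it was 17.8% (14.5% to 21.4%) of 495. Among the 313 of clear mapping it was 8.95% (6.03% to 12.7%), against 14.2% in AUL, 12.7% in M-MPAL and 4.25% to 11.2% in the other leukaemia-only sets. Among all control-only SNVs, C to T made up 31.5%, against 28.0% of those in all 7, and T to C 19.02%, against 28.6%. The other classes differed less, with C to A at 12.3% and 12.6%, C to G at 8.37% and 8.74%, and T to G at 9.11% and 11.7%.

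Most of the T to A calls were seen on reads of 1 strand only, and in 1 orientation. Alternative reads came from a single strand in 33.1% of all control-only SNVs, against 4.86% of those in all 7. Calls made in 1 leukaemia alone had this too, in 34.1% (AML), 30.6% (B-ALL), 24.4% (T-ALL), 21.6% (T-MPAL), 15.96% (M-MPAL) and 11.4% (AUL). For T to A the figure was 236 of 399, or 59.1% (54.1% to 64.0%), while the other 5 classes had 20.9% (C to T) to 40.2% (T to G). The orientation was uneven as well. In 213 of the 236 (90.3%, 85.7% to 93.7%) the reads themselves showed T turned into A: 103 with a reference T were seen on forward reads only and 110 with a reference A on reverse reads only. The opposite pattern occurred 8 and 15 times. The same orientation prevailed among the leukaemia-only T to A calls on 1 strand, at 82.2% for M-MPAL (83 calls), 77.9% for T-MPAL (88 calls) and 60% to 64.7% in the other 4. In AML and B-ALL a different class stood out, as 56.4% and 47.2% of T to G calls were on 1 strand. Of those, 78.6% and 77.0% read as named. T-ALL followed with 36.8% and 66.0%. In the other control-only classes the reads showed the named change in 29.6% (T to C) to 60% (C to A) of the calls on 1 strand.

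These 213 calls also differed from the other 1806 control-only SNVs in where they lay and in how many were in dbSNP, neither of which was used to choose them. LINE elements, the long mobile repeats of the mouse genome, held 97 of them (45.5%, 38.7% to 52.5%), against 15.7% of the others. Seen from the repeats, 25.5% (21.2% to 30.1%) of the 381 control-only SNVs in LINEs belonged to this class, against 0.747% to 3.95% of the LINE SNVs in the leukaemia-only sets. They lay on all 19 autosomes, 17 of the 213 lay within 100 bases of another control-only SNV, and 3.76% were in dbSNP, against 31.9% of the others. Segmental duplications, where dbSNP listing was more common, held 7.98% of the 213 and 33.4% of the others. The part of this in the dbSNP difference was not tested. The median depth of the 213 was 15 reads with 4 alternative reads and a median QUAL of 29.0, and 1 of them reached a QUAL of 100. Choosing calls read on 1 strand favours calls with few alternative reads, so these depth and quality values go with the choice. The median share of alternative reads was 0.3, against 0.27 in the others.

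This class was larger in the control than in any leukaemia-only set. It made up 10.5% (9.24% to 11.97%) of the control-only SNVs, against 3.72% in T-MPAL, 2.78% in M-MPAL, 2.41% in B-ALL, 2.32% in AML, 1.29% in T-ALL and 0.742% in AUL. The interval of T-MPAL, the nearest, ended at 4.56%. In number the control had 213 and the leukaemias 51 to 88. Among the control SNVs called in all 7 libraries it made up 0.315%. The 3 libraries with the same lowest deposited depth (the control, M-MPAL and T-MPAL) had the highest percentages. They were also the libraries of 1000000 cells, against 2000000 in the others. Depth limit, cell number and processing cannot be told apart here, and the part of each was not tested. Without the 213 calls, T to A made up 10.3% of the remaining 1806 control-only SNVs and C to T 35.2%.

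**Figure D2:**
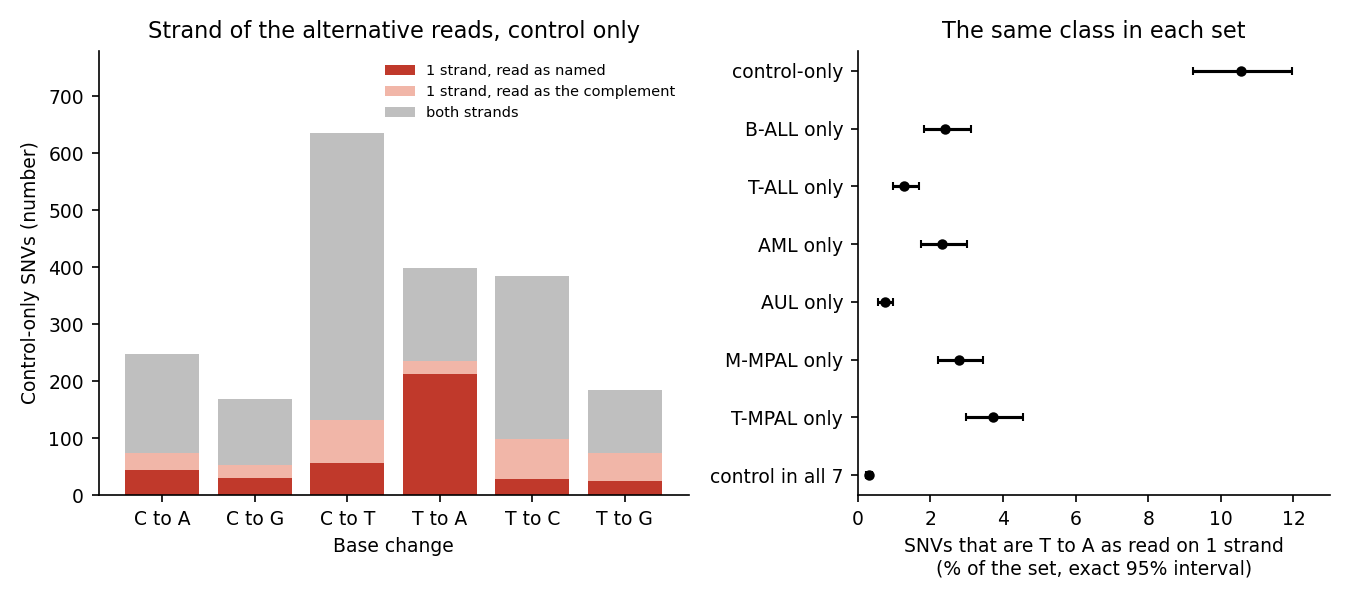
Left, number of control-only SNVs in each base change class, split by whether the alternative reads came from both strands (grey), from 1 strand and read as the named change (red) or from 1 strand and read as its complement (pink). Right, T to A changes read as such on 1 strand, as a percentage of each set with exact 95% intervals; the control-only value of 10.5% lies above all others, the next being 3.72% in T-MPAL.

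Where the control-only SNVs lay differed from the shared ones mainly in duplicated DNA, and the leukaemia-only sets shared this trait. Annotated repeats held 60.3% (58.2% to 62.5%) of control-only SNVs and 53.6% of those in all 7. Simple repeats held 14.5% and 3.75%, LINEs 18.9% and 19.6%, LTR elements 17.4% and 18.1%, and SINEs 5.94% and 8.51%. Segmental duplications, long stretches present in several near-identical copies, held 30.7% of the control-only SNVs and 63.3% of those in all 7. In the leukaemia-only sets duplications held 11.9% to 28.3% and simple repeats 10.9% to 27.9%. The control-only percentage in duplications was thus the highest of the 7 library-only sets. The 620 control-only SNVs in duplications had a median mapping quality of 37, and 54.4% were in dbSNP. The 1399 outside them had a mapping quality of 48, and 17.7% were in dbSNP. By gene annotation 65.2% were intergenic and 28.2% intronic, 18 lay in 3' UTRs, 17 in coding exons and 0 at splice sites.

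Some windows held many control-only SNVs among a larger number of shared ones. The 10 fullest windows of 1 Mb held 379 of them (18.8%) and 10626 shared control SNVs, so that 1.71% to 6.56% of the calls in each window were control-only. Each of these percentages was below the 6.8% over all control SNVs, so the windows were rich in SNVs of both kinds. The window at 85 to 86 Mb of chromosome 1 held 83, including 7 in Sp140 and 5 in Sp100, which encode proteins of nuclear bodies. Chromosome 4 at 147 to 148 Mb held 65, of which 39 were annotated to Gm13152. Chromosome 5 at 15 to 16 Mb held 55, among them 4 in Speer4cos. In these 3 windows 95.2% to 100% of the control-only SNVs lay in segmental duplications and the median mapping quality was 34 to 35. The highest ratio of control-only to all control calls by chromosome was 15.6% on chromosome 19 and 15.5% on chromosome 2.

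The control-only SNVs of highest QUAL were not those of clearest mapping. All 10 had a mapping quality of 31 to 33. The best supported by depth was in an intron of Gm7120 on chromosome 13, with 110 of 195 reads. Positions 85494657 and 85494706 of chromosome 1, both in a segmental duplication, had 83 of 128 and 66 of 102 reads. Speer8-ps1 had 43 of 73 reads. The genotype was homozygous for 11 control-only SNVs, against 3701 of the control SNVs in all 7. These 11 had 12 to 23 reads and a mapping quality of 31 or 32, and they included Lrrtm4 (23 of 23 reads), a synaptic adhesion gene, and 3 neighbouring bases of chromosome 5 from 138683114 to 138683116 with 18 to 19 reads each.

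The control-only INDELs were changes of 2-base units in long tracts. Of 28122, 73.7% changed the length by 2 bases and 19.6% by 4 bases. Deletions of 2 bases made up 48.0% of the control-only set and 6.82% of the 6933 control INDELs in all 7, insertions of 2 bases 25.7% and 8.28%, and deletions of 4 bases 17.95% and 5.50%. In the wider set of 52767 control INDELs shared with at least 1 leukaemia, 80.6% changed the length by 2 bases and 5.94% by 4 bases, deletions of 2 bases made up 74.1% and insertions of 2 bases 6.49%. Changes of 1 base, which made up 49.6% of those in all 7 and 7.80% of the shared ones, occurred in 93 control-only calls (0.331%). Deletions of any length were 71.3% of the control-only set, 85.5% of the shared set and 52.9% of the set of all 7. The longest control-only deletion was 44 bases and the longest insertion 37 bases.

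**Figure D3:**
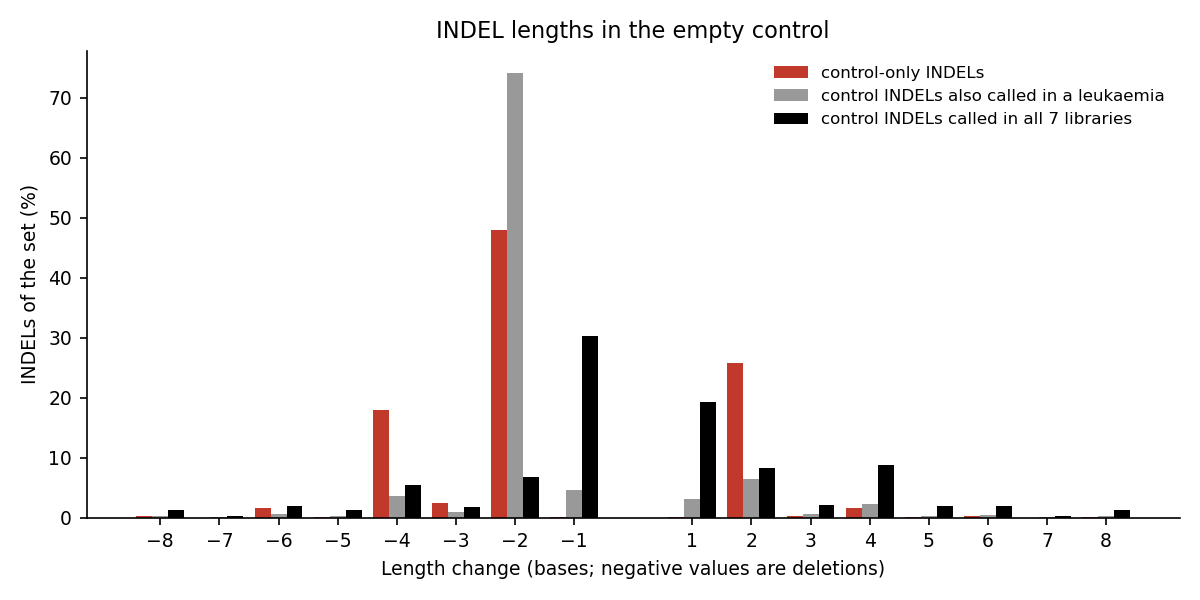
Percentage of INDELs (vertical axis) by length change from 8 bases deleted to 8 bases inserted (horizontal axis) in the empty control, for the control-only set (red), calls also made in a leukaemia (grey) and calls in all 7 libraries (black). Control-only calls peak at a deletion of 2 bases (48.0%), as do shared calls (74.1%), and changes of 1 base are nearly absent (0.331%).

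By repeated unit, AC (or its complement and rotations) made up 64.7% of control-only INDELs, 67.0% of the 52767 shared with at least 1 leukaemia and 13.6% of those in all 7. AG made up 23.3%, 15.3% and 4.56%, and AT 2.84% of the control-only and 1.77% of the shared set. The tract had a median length of 37 bases in the control-only set, 39 bases in the shared set and 6 bases in the set of all 7. Repeats of any annotated kind held 97.9%, 94.2% and 67.1%, and simple repeats 84.0%, 81.3% and 32.1%. The median share of alternative reads was 0.286 (quartiles 0.214 to 0.364) in the control-only set, 0.333 in the shared set and 1 in the set of all 7, and the median QUAL was 39.7, 56 and 220. In unit, tract and repeats the control-only INDELs were thus close to the shared ones, and it was the INDELs in all 7 that differed. At the depth limit, the 1879 INDELs with 10 reads had a median share of 0.4 and the 1668 with 9 reads one of 0.333.

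In these measures the control-only INDELs resembled the leukaemia-only ones. AC made up 58.6% to 68.4% of the leukaemia-only sets, deletions and repeats were likewise in the majority, and the tract length had a median of 37 bases in each of them. The AT unit differed by library: it made up 2.84% of control-only, 2.94% of M-MPAL-only and 1.64% of T-MPAL-only INDELs, against 10.1% to 12.7% in B-ALL, T-ALL, AML and AUL. The same 3 libraries share the higher lowest deposited depth and the smaller number of cells (1000000 against 2000000). These and the processing cannot be told apart, and the part of each was not tested.

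Many control-only INDELs sat on sites that also varied in a leukaemia. At 12996 of the 28122 positions (46.2%) at least 1 leukaemia library had a different allele, against 45.3% to 46.5% for the leukaemia-only sets treated in the same way. The nearest of these alleles was 1 unit away at 37.8% of the positions and 2 units away at 56.2%, and 99.3% were a whole number of units away. SNVs showed this at 10 of 2019 positions. If INDELs had been matched by position alone, 15126 would have been control-only.

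Outside repeats and segmental duplications 550 control-only INDELs were left. Their median share was 0.2 (quartiles 0.16 to 0.261), against 1 in the 2261 shared control INDELs of such places. The AC unit still made up 45.8% of the control-only ones, AG 19.8% and AT 15.8%. Changes of single A or C units (T and G on the other strand) made up 5.64% of the control-only calls and 77.7% of the shared ones.

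A small number of control-only INDELs were carried by nearly all reads. A share of at least 0.9 was found for 194 (0.690%), against 11.2% of the shared control INDELs and 1.03% (B-ALL) or more of each leukaemia-only set. The deposited genotype was homozygous for 72, not all of them at such a share: Pde9a, a phosphodiesterase gene chosen after its value was seen, was among them with 7 of 15 reads. The deepest of the 10 with the highest QUAL was a 1-base deletion at position 25101900 of chromosome 8, upstream of a gene, with 27 of 27 reads and a mapping quality of 50. Rras2, which encodes a Ras-related GTPase, had an intronic insertion of 6 bases in 21 of 23 reads. Arhgef28, a guanine nucleotide exchange factor gene chosen after its value was seen, had an intronic insertion of 9 bases in 14 of 14 reads, all of them reverse. In 1 of the 10, at position 108758994 of chromosome 7, all 6 leukaemia libraries had another allele.

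Ppp1r9a, also chosen after its values were seen, showed an SNV and an INDEL together. The gene encodes neurabin, an actin-binding protein. Its intronic SNV at position 5157617 of chromosome 6 had 11 of 23 reads with a QUAL of 178, and the 2-base deletion 3 bases further on had 11 of 23 reads with a QUAL of 222. In all, 19 control-only SNVs had a control-only INDEL within 10 bases.

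Calls that alter a protein or a splice site were few and mostly weak. There were 31: 13 missense SNVs, 1 stop-gaining SNV, 10 in-frame deletions, 1 frameshift deletion and 6 splice-site INDELs. Of these, 5 reached a QUAL of 100, and 3 missense SNVs were in duplicated or vomeronasal gene families. Another 3 SNVs were synonymous. In coding SNVs of any kind, the control-only set had 17 of 2019, against 21 of 2245 for B-ALL, 21 of 2368 for AML, 21 of 2983 for M-MPAL, 24 of 2368 for T-MPAL, 60 of 6875 for AUL and 90 of 3966 for T-ALL.

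Among the missense calls, alternative reads were a minority in every gene named here. Cyp2b10, a liver cytochrome P450 that metabolises drugs, carried A87D in 10 of 44 reads, or 22.7% (11.5% to 37.8%). Eya2, a transcriptional co-activator with phosphatase activity, carried A11T in 9 of 33 reads. Slc44a3, of the choline transporter-like family, carried A227T in 7 of 23 reads, and the interval (13.2% to 52.9%) of this call included 50%. Ptchd2, a patched-domain protein, carried R1117Q in 6 of 30 reads. Tnfrsf23, a decoy receptor for the death ligand TRAIL in mice, carried A29T in 5 of 30 reads, in a segmental duplication with a QUAL of 34.5. Slc12a9, of the cation-chloride cotransporter family, had the highest share, with G412R in 5 of 12 reads.

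Some of the coding SNVs bore marks of weaker calls. Pyroxd2 carried S261C in 6 of 22 reads, all forward, and it belonged to the T to A changes on 1 strand. Prdm9, the histone methyltransferase that places meiotic recombination sites, carried N553K in 5 of 20 reads with a QUAL of 26.1. Dsg1b, a desmosomal cadherin, carried E745K in 5 of 24 reads on 1 strand and in a segmental duplication. Pcdhgb1, a protocadherin, had none of these marks, with E324K in 5 of 25 reads on both strands and a QUAL of 57. The stop in Dhrs7, a short-chain dehydrogenase, was read in 7 of 27 reads, or 25.9% (11.1% to 46.3%), on both strands with a QUAL of 105.

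All 10 in-frame deletions removed 3 bases from a simple repeat, and in 8 of them the unit was AGC or its complement, as in the Il2 and Clock alleles printed above. They rested on 3 to 5 reads and shares of 10.8% to 21.4%. Il2 was read in 4 of 22 reads, Med12l in 4 of 20, Ifnlr1 in 5 of 38, and Ramp2, an accessory protein of the calcitonin receptor-like receptor, in 4 of 34. Outside the rule for named genes and chosen after their values were seen, Clock had 4 of 25 reads and Mllt3, a chromatin reader and a fusion partner of KMT2A in leukaemia, had 3 of 27. Mink1 (4 of 31), Amotl1 (4 of 37), Ngef (4 of 36) and Glrp1 (3 of 14) completed the 10. The 48 control-only INDELs of the AGC unit anywhere had a median share of 0.149, below the 0.286 of all control-only INDELs. The 2 sets were not matched for depth, with medians of 24 and 16 reads. With at least 20 reads the median share of control-only INDELs was 0.238. In-frame deletions also led the coding INDELs of T-MPAL (12 of 14), T-ALL (9 of 10), AUL (6 of 8), M-MPAL (5 of 7) and B-ALL (5 of 7), but not of AML (1 of 3).

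The 7-base deletion in Tstd3 (T38fs) was read in 3 of 13 reads. Among the splice-site INDELs, Layn, a hyaluronan receptor, had 8 of 13 reads and a different allele in AUL. Krt84 (a hair keratin, 5 of 11 reads), Cacna1g (a T-type calcium channel, 5 of 16) and Cpne8 (a copine, 4 of 14, named after its value was seen) had other alleles in 1 to 2 leukaemias. Fam178b had 4 of 34 reads. Of these 5, all but Fam178b had the AG unit.

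**Figure D4:**
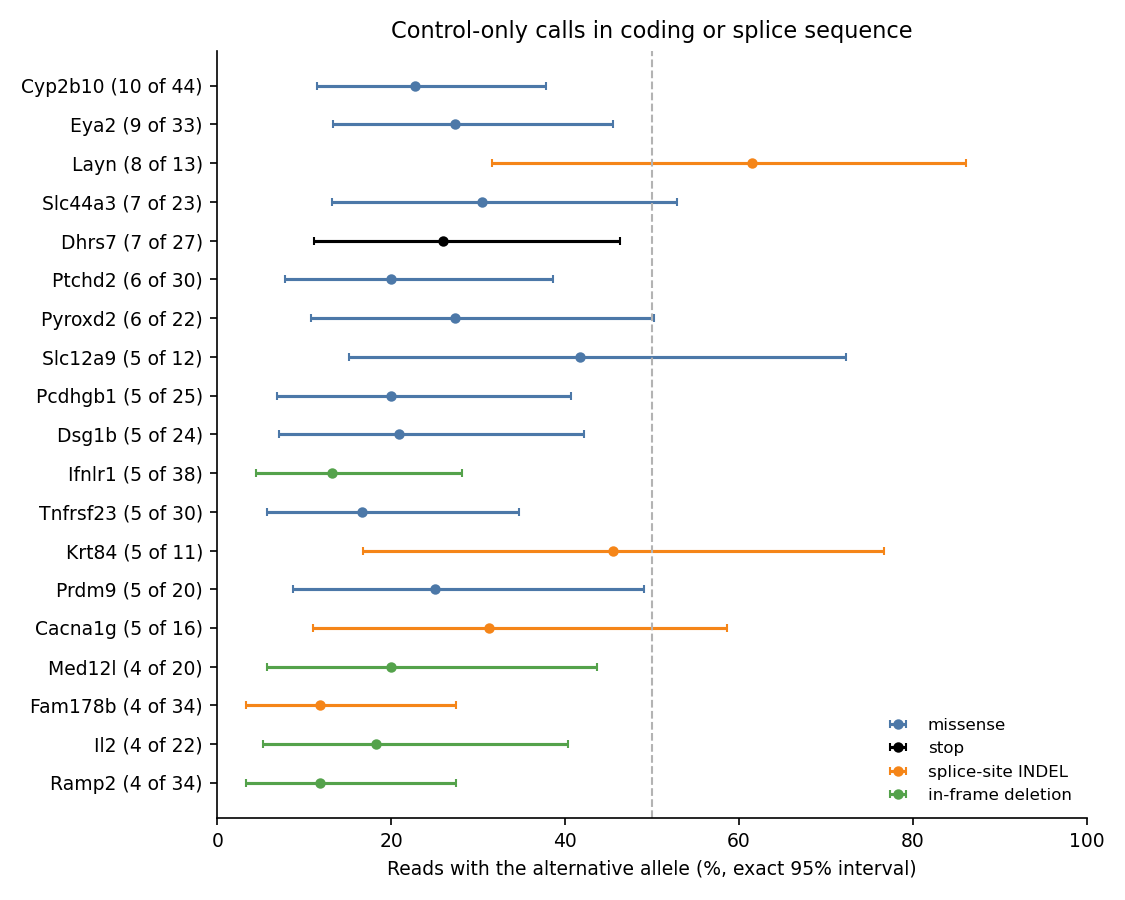
Percentage of reads with the alternative allele (horizontal axis, points with exact 95% intervals) for the 19 named control-only calls in coding or splice sequence, in order of alternative reads, with the read counts beside each gene. The dashed line marks 50%; most intervals, Cyp2b10 (11.5% to 37.8%) among them, lie below it, and the widest belong to calls with 11 to 13 reads.

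Genes of clonal blood formation, in which mutated stem cell clones expand, gave no coding call. Over all genes the control-only set held only 17 coding SNVs and 11 coding INDELs, so an empty result in a short list says little. The list held 30 genes such as Dnmt3a, Tet2 and Asxl1 (DNA methylation and chromatin), Trp53 and Ppm1d (DNA damage response), Sf3b1 and Srsf2 (splicing) and Jak2, Kit and Flt3 (cytokine signalling), 24 of them on chromosomes 1 to 19. No gene held a control-only SNV, and 0 of the control's shared SNVs lay in them. In 13 genes there were 24 control-only INDELs, none in an exon or splice site, and 23 of them in repeats. Runx1, a transcription factor of blood formation, had 8, Tet2 had 3, and Cbl and Kit had 2 each. The list held 40 shared INDELs, so that 37.5% of its INDELs were control-only, against 34.8% over all control INDELs.

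The antigen receptor loci, which lose DNA when lymphocytes rearrange them, were examined as a check on the label. No control copy number row, shared or control-only, lay in Igh, Igk, Igl, Tra, Trb, Trg or Trd. A loss carried by part of the cells may not give such a row, so the share of lymphocytes was not measured. Igh held 3 control-only SNVs beside 22 shared ones, Igk 5 beside 89, Igl 1 beside 0, Trb 1 beside 1, and Tra 0 beside 2. Control-only INDELs numbered 6 beside 28 shared ones in Igh, 13 beside 18 in Igk, 3 beside 5 in Igl, 3 beside 4 in Trb and 1 beside 2 in Trg. Tra held 17 beside 11, of which Trd (which lies within Tra) held 2 and 1. These counts stand against a control-only share of 6.8% of SNVs and 34.8% of INDELs over all control calls, and most are too small to be set apart from it. DNA calls carry no expression markers, so the cell types behind the GFP+ label were not checked further. Among control-only calls no row spanned a chromosome, and few SNVs had a heterozygous share.

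The control-only copy number rows were mostly short gains. There were 140 gains of 220 control gains (interval of the count 118 to 165) and 19 losses of 22 (11.4 to 29.7). The other complete tables had 11 to 59 gains and 1 to 34 losses of their own by the same rule. The 140 gains covered 1944 kb with a median size of 3 kb (quartiles 2 to 7 kb), and 76.4% were under 10 kb. LINEs were the annotated repeat of 54.3%, and 3.57% lay in segmental duplications, against 32.5% of the shared control gains. The 19 losses covered 296 kb with a median of 7 kb, and 9 were listed at 0 copies and 10 at 1 copy. Of the control gains, 40 were also present in all 5 complete leukaemia tables, and the remaining shared ones in 1 (6 gains), 2 (10), 3 (6) or 4 (18).

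The deposited copies were high in the short rows. The control-only gains had a median of 6 copies, where 2 is normal. Of them, 35 had at least 10 copies and 24 had 3. The highest value, 122 copies, belonged to 2 kb of chromosome X. Of 9 merged gains with more than 50 copies, 8 were 2 kb long. Merging adjacent rows of the same direction and copies left 120 gains and 17 losses, of which 12 gains and 1 loss measured at least 50 kb. Before merging, a leukaemia row of the opposite direction overlapped 18 of the 140 gain rows, 12 of them on chromosome 19.

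The largest gains, after merging, contained few genes. Grm5, a metabotropic glutamate receptor gene, lay under 225 kb at 5 copies (chr7:87827001-88052000). Grik2, a kainate receptor subunit gene, lay under 144 kb at 3 copies (chr10:49218001-49362000), Cdh20, a cadherin gene, under 112 kb at 3 copies, and Esp36 under 100 kb at 3 copies. Ankhd1 lay under 76 kb at 3 copies. The largest intervals without an annotated gene were 130 kb of chromosome 9 at 3 copies, 121 kb at the end of chromosome 1 at 26 copies and 116 kb of chromosome 11 at 6 copies. The losses were smaller except for 119 kb at 1 copy over Arid3b, Clk3 and Edc3 on chromosome 9. The next were 31 kb on chromosome 13, 26 kb and 24 kb on chromosome 14, and 23 kb over Ldb2, a LIM-domain-binding cofactor gene.

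The read depth of the INDEL calls inside the rows gave a second measure of copy number. Depth was divided by the library's median. In the control-only gains, 36 control INDEL calls had a median relative depth of 0.826 (quartiles 0.641 to 1.04), where the deposited copies over 2 had a median of 2.25. Only 1 of the 36 exceeded 1.5. The 6 leukaemia libraries had 0.936 over 358 calls in the same intervals. The 5 of them with complete tables had no gain row there, but 18 of these gain rows overlapped a leukaemia loss. The AUL table, cut short, could not be checked. In Grm5 the control had 0.696 over 7 calls and the leukaemias 0.955 over 42 calls. In the loss over Arid3b, Clk3 and Edc3, 1 control call had 0.957 and 13 leukaemia calls had 0.955. Over all control-only losses the median was 0.957 (5 calls), where the copies over 2 were 0.5.

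In INDEL calls the same measure was above 1 in shared gains and in long gains of other libraries, and below 1 in long losses. In control gains present in all 5 complete leukaemia tables, 553 control calls had a median relative depth of 2.87, where the copies over 2 had a median of 6. In T-MPAL gains on chromosome 15 it was 1.43 over 4644 calls, for 1.5 deposited, and in B-ALL losses on chromosome 19 it was 0.682 over 1944 calls, for 0.5 deposited. SNV calls followed the deposited copies less closely. In the chromosome 15 gains, for 1.5 deposited, they had a median relative depth of 1.09 in T-MPAL (835 calls) and 0.977 in M-MPAL (838 calls), where M-MPAL INDEL calls had 1.39. In the B-ALL losses they had 0.333 (345 calls), in the control gains that all 5 complete tables shared, 2.49 (3541 calls), and the control-only gains held 1 SNV call. Depth at called sites is therefore an imperfect measure of copies. Of the 140 control-only gains most held no INDEL call, so this depth speaks only for the rows that did, most of which were long: 34 of the 36 calls lay in rows of at least 10 kb.

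**Figure D5:**
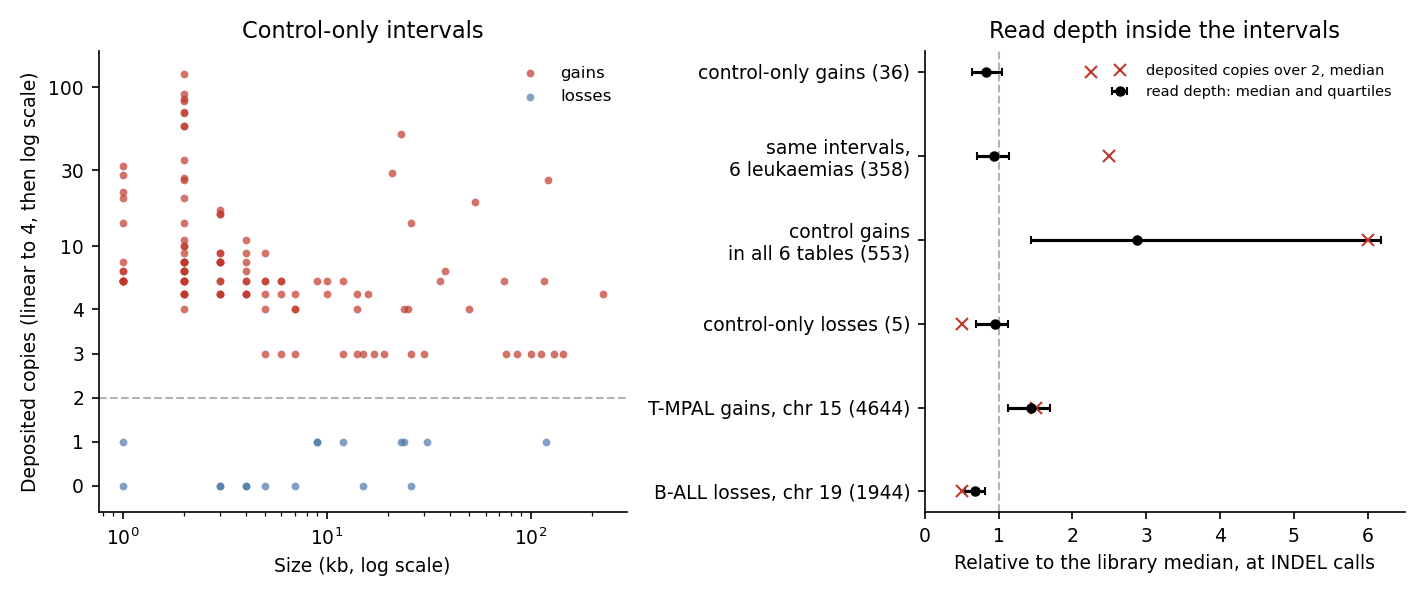
Left, deposited copies against size for control-only copy number intervals, gains in red and losses in blue, with 2 copies dashed. Right, read depth relative to the library median at INDEL calls inside sets of rows (median and quartiles, number of calls in brackets), beside the deposited copies over 2 (crosses); in control-only gains the depth is 0.826 and the copies over 2 are 2.25, whereas in T-MPAL gains both lie near 1.5.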

How the data were processed

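Genomic DNA of 7 libraries was analysed, and the 6 integration site samples of the series were not analysed here. Paired reads of 150 bp were made from 350 bp fragments at a planned 30x, per the labels' protocols. Alignment named BWA and build mm10, per the submitters' processing notes, without a version. Variants were called with samtools, copy number with FREEC and annotation (dbSNP build 142 included) with ANNOVAR, per the file headers. The deposited QUAL is a score, and read depth, alternative reads and copies are whole numbers as the authors deposited them. The sources used here give no filters, FREEC settings or versions. The copy number table of AUL is cut short and was left out.

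Members were matched by chromosome, position and both alleles. "In all 7" means a control call with at least 10 reads called at any depth in the 6 leukaemias. Strand counts came from the deposited per-strand read counts. The repeated unit and tract were read from the deposited alleles. The 95% intervals are Poisson for counts and Clopper-Pearson for shares. They cover counting error only, because each group has 1 library and the calls of 1 library are not replicates. Reads that carry no molecular identifier can also repeat 1 molecule. RefSeq promoters (GRCm38.p6) had the deposited reference base at 169 of 169 control SNVs. Copy number starts were raised by 1 base.

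Named genes are those of the 20 protein-altering or splice calls with the most alternative reads (gene families counted but not named), the 10 SNVs and 10 INDELs of highest QUAL, of which the text gives some, genes in rows of at least 50 kb or among the 5 largest, and list genes with coding calls. Of the items these rules name, 1 is not reported here. Windows of many SNVs were picked by count. Members, lists and rules were chosen with earlier results of these data known. Alternatives changed depth, QUAL, matching, libraries, repeats, dbSNP, clusters and row size. Intervals used scipy 1.17.1, tables pandas 2.3.3 with numpy 2.4.6 under Python 3.11.15, and figures matplotlib 3.10.9, and the scripts were tested on simulated data.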

Additional observations from a re-analysis of the deposited data

Results flagged for a closer look

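Chromosome X was outside the chromosomes compared above, and its control-only calls are given for that reason. There were 193 control-only SNVs on X (167 to 222), or 5.60% of the control's 3449 SNVs there, with a median alternative read share of 0.276. There were 1139 control-only INDELs on X, or 36.0% of 3166, with a median share of 0.3. Both percentages lay near those of chromosomes 1 to 19 (6.8% and 34.8%). On Y there was 1 control-only SNV and 1 control-only INDEL.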

How the results depend on the processing

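Of 97 alternative values, 50 stayed within 1.5 times a count or inside the interval or spread of a share, and 47 moved. The 6 SNV counts with 1 leukaemia not asked to lack the call ran from 2182 to 2253, and the INDEL counts from 31107 to 31830. With at least 20 reads there were 1290 SNVs and 9205 INDELs, with median read shares of 0.252 and 0.238, and 55.3% and 96.4% in repeats. With a QUAL of at least 50 there were 775 SNVs and 9906 INDELs. With a QUAL of at least 100 there were 254 and 1625, with median shares of 0.333 and 0.429, and 48.4% and 98.3% in repeats; C to A was then 18.1%, C to T 42.1%, T to A 9.84%, T to C 14.2% and T to G 7.87%. With only M-MPAL and T-MPAL asked to lack the call there were 4044 SNVs and 49560 INDELs. Outside repeats and segmental duplications there were 495 SNVs and 550 INDELs, with median shares of 0.259 and 0.2; C to A was 17.2%, C to G 7.07%, C to T 36.4%, T to A 17.8%, T to C 9.70% and T to G 11.9%. INDELs matched by position alone numbered 15126, and those with no leukaemia call within 10 bases 14736 (share 0.25, 96.7% in repeats). There were 40 copy number rows of at least 10 kb and 13 of at least 50 kb. Chosen after seeing the data, leaving out T to A on 1 strand gave C to T 35.2%, T to A 10.3% and T to C 21.3%; the 313 SNVs of clear mapping had a share of 0.241, C to A 16.9%, C to G 6.07%, C to T 50.2%, T to A 8.95%, T to C 10.5% and T to G 7.35%. Most of these alternatives keep fewer calls by construction, and the cause of the other shifts was not tested. No paired analysis was possible because each group has 1 library. Control-only means not called in the leukaemias at their depth, and not absent from them.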
